A study of Rattus norvegicus with 4 samples.

Results

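Connexins and claudins, the membrane proteins that build gap junctions and tight junctions, were examined in RNA of the rat carotid body (CB), a small organ that senses oxygen in arterial blood. Members were taken by gene symbol, as every gene named Gja to Gje or Cldn followed only by a number, which gave 19 connexins and 23 claudins, 42 of the 32883 genes in the table. All rats were Sprague Dawley rats with no treatment named. The labelled groups were 2 ages, pups of day 5, called neonates here, and rats of day 21, called adults. Per the series description, CBs of 6 pups or of 3 older rats were pooled for each library. The pools held females and males together, and each library is whole CB with its vessels, nerve and connective tissue, so fewer cells of a type and less RNA per cell cannot be told apart. The study's methods give larger pools and a further replicate per age than the labels, and the analysis here rests on 2 libraries per age.

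Gap junctions are channels between neighbouring cells, built from connexins, that let ions and small molecules pass directly. In the CB they are known to couple glomus cells, the oxygen-sensing cells, to each other, and in vessels they carry signals along endothelium and muscle. Tight junctions seal the space between cells of a sheet, and the claudins present set which ions pass. Claudins are known from epithelia, from the endothelium of barrier vessels, and from the perineurium and myelin of nerves.

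The libraries summed to between 36286191 and 39476110 estimated counts, and levels are given as CPM, counts scaled to a common library total, after TMM scaling, a trimmed-mean correction for library composition. At this depth 3 counts, taken as the floor of detection, correspond to 0.0736 to 0.0845 CPM, and intervals and floors given here cover counting error only. The CB label fits its defining markers: all 10 glomus cell markers were tested, and their summed level was 5869 and 4475 CPM in neonates and 5070 and 4185 CPM in adults. The neonatal libraries differed from each other in other tissue. Parathyroid hormone (Pth) stood at 1773 and 208 CPM in neonate replicates 1 and 2, and at 0 in both adult libraries. The markers of myelinating Schwann cells were lower in neonate replicate 1 than in replicate 2. Both gaps are given again further on, beside members that differed between the neonatal libraries in the same sense. Of the other marker lists, all 8 cell cycle genes and all 4 erythroid genes tested were higher in neonates, while 6 of 7 macrophage and 4 of 6 fibroblast genes were lower. Of 7 genes of Schwann and sustentacular glia 2 were higher and 4 lower, and of 3 skeletal muscle genes 1 was higher and 1 lower.

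Of the 42 members, 8 connexins and 8 claudins were tested, having reached 1 CPM, before TMM scaling, in 2 or more libraries. Another 20 were detected below that level, with at most 50 counts in any library, and 6 had 0 counts everywhere, among them Gja10, Gje1, Cldn17, Cldn18 and Cldn25, which allows no more than the floor of 3 counts in each. Ages were compared as neonate over adult by the quasi-likelihood test of edgeR, p-values were adjusted by Benjamini-Hochberg across the 13843 genes tested, and a gene was called at an adjusted p under 0.05 and a change of at least 2-fold. At that rule 3 members were higher in neonates, Cldn6 and Cldn15 among them, where 7.68% of all genes tested were called. As many as 4 were lower in neonates, Cldn1, Cldn11, Cldn22 and Gjb2, against 13.2% of all genes. By adjusted p alone 4 members were higher, with Gjc1 added, and 8 were lower, with Gja1, Gjd2, Cldn5 and Cldn12 added, against 31.2% and 31.1% of all genes. Cldn6, Cldn22 and Gjb2 passed the filter only through the age at which they were high, so these counts describe the members that passed and are not evidence about the families. With the same limit, the median log2 fold change was -0.21 over the 8 connexins, -0.68 over the 8 claudins and -0.0029 over all genes tested.

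**Figure D1:**
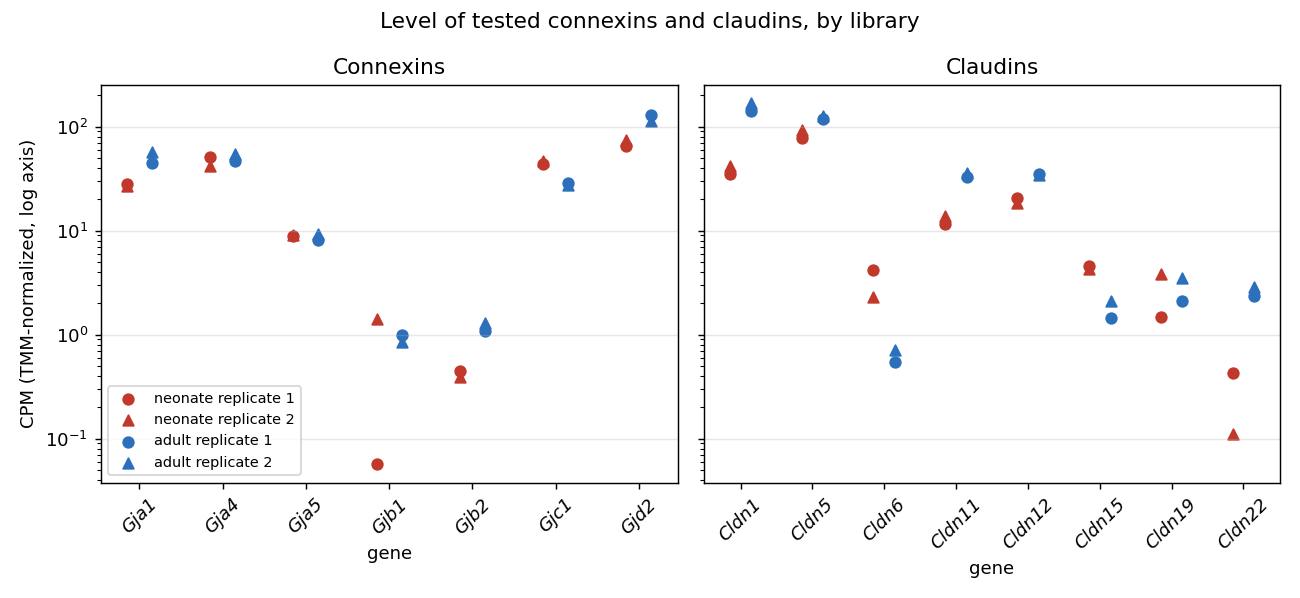
Level in CPM (TMM-normalized, log axis) of the tested connexins (left) and claudins (right) described in the text, with red points for neonatal and blue for adult libraries, circles for replicate 1 and triangles for replicate 2. The ages overlap for Gja4, Gja5, Gjb1 and Cldn19 and for no other gene drawn. Levels of different genes are not corrected for length and should be compared only within a gene.

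In 12 of the 16 tested members both libraries of an age lay on the same side of both of the other age. This was the case for 83.0% of all genes tested, a larger share than among the members. With 2 libraries against 2, exact permutation of the libraries for 1 gene cannot give a two-sided p below 0.333, and all adjusted p come from the edgeR model, which shares the estimate of spread between genes. The libraries of an age are labelled biological replicates, and which litters went into which library is not given in the sources used here. Per the series description, the rats of day 21 were the part of a litter kept after the pups of day 5 were taken.

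Sequences are shown for the called members, to place the results at their genes. The 100 bases before the annotated start are given for the 6 of 7 with an entry in the RefSeq promoter table of the GRCr8 build, where 30 of the 42 members have one. Letters in capitals are matches to the GC box, spelled GGGCGG, or to the CCAAT box, spelled CCAAT, on either strand, so that ATTGG is a CCAAT box on the opposite strand. The TATA box, spelled TATAAA, was searched in the same way, as was the core of the hypoxia response element, spelled ACGTG.
Cldn6, chr10:13215708-13215807, plus strand: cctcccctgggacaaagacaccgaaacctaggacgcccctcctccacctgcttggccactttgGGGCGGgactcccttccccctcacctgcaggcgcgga
Cldn15, chr12:25343626-25343725, minus strand: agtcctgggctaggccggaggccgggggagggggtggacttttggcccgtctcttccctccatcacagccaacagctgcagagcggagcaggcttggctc
Cldn1, chr11:87926276-87926375, plus strand: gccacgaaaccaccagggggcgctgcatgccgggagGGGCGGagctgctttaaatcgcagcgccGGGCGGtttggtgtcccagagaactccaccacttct
Cldn11, chr2:114149540-114149639, minus strand: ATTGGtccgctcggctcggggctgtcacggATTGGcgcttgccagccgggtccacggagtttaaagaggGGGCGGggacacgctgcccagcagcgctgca
Cldn22, chr16:51156085-51156184, minus strand: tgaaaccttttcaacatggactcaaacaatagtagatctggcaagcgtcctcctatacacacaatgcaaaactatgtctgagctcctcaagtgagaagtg
Gjb2, chr15:35381954-35382053, minus strand: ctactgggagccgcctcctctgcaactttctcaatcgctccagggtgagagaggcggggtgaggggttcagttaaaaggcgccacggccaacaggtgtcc

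Cldn6 held a GC box and Cldn1 held 2, and Cldn11 held a GC box and 2 CCAAT boxes. Cldn15, Cldn22 and Gjb2 held none of the 4 motifs in these 100 bases. Over all 33469 promoters of the table, 21.6% held a GC box in the same window, 17.1% a CCAAT box, 5.78% a TATA box and 7.76% the hypoxia response core. In a wider window of 250 bases, Cldn15 and Gjb2 also held a GC box, beginning 108 and 126 bases before the start. A GC box lay in that wider window in 30.5% of all promoters. The matches describe these letters only. Called members of opposite direction, Cldn6 and Cldn1, both held the GC box.

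Of the connexins of vessels, Gjc1 was higher in neonates, Gja1 was higher in adults, and Gja4 and Gja5 did not pass the test. Gjc1 (connexin 45), found in smooth muscle and in the conduction tissue of the heart, stood at 43.6 and 47.3 CPM in neonates and at 28.6 and 27.3 CPM in adults. That is 1.62-fold higher in neonates (log2 0.70, standard error 0.094, edgeR adjusted p = 0.00023). Gja1 (connexin 43), the most widespread connexin, stood at 28.2 and 26.7 CPM in neonates and at 44.9 and 56.7 CPM in adults. It was 1.85-fold higher in adults (log2 fold change -0.89, standard error 0.12, edgeR adjusted p = 0.00025). The pair thus changed in opposite directions in the same libraries, each without overlap between ages. Of 8 markers of smooth muscle and pericytes, 1 was higher in neonates, 5 were lower and 2 did not pass the test (median log2 fold change -0.53). Their part in the change of Gja1 was not tested.

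Gja4 (connexin 37) and Gja5 (connexin 40) are the connexins of arterial endothelium. Gja4 stood at 51.6 and 41.8 CPM in neonates and at 46.7 and 54.2 CPM in adults, so the ages overlapped. The log2 ratio was -0.11, with a 95% interval from -0.39 to 0.17 (edgeR adjusted p = 0.45). Gja5 stood at 8.84 and 9.07 CPM in neonates and at 8.12 and 9.22 CPM in adults, with a log2 fold change of 0.047 and a 95% interval from -0.37 to 0.46 (edgeR adjusted p = 0.84). Changes as large as 2-fold lie outside both intervals. Scaled to library size alone, which moved the median of all genes from -0.0029 to -0.25, Gja4 fell to -0.36 (edgeR adjusted p = 0.029) and Gja5 turned to -0.20 (edgeR adjusted p = 0.37). Of the endothelial markers, 2 were higher and 3 lower in neonates and 4 did not pass the test, the median log2 fold change being -0.075, with summed levels of 1736 and 1718 CPM in neonates and 1770 and 1713 CPM in adults.

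Gjd2 (connexin 36), the main connexin of neurons and of several endocrine cells, was higher in adults. The neonatal libraries held 65.1 and 74.6 CPM and the adult libraries 128.7 and 112.9 CPM. The difference was 1.73-fold (log2 fold change -0.79, standard error 0.099, edgeR adjusted p = 0.00016), without overlap between ages. The neuronal markers went the other way, 6 of 7 being higher in neonates (median log2 fold change 0.61), and the 10 glomus cell markers had a median of 0.088, with 3 higher and 2 lower. Which cells carry Gjd2 was not tested.

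The remaining connexins were low. Gjb2 (connexin 26), known from the inner ear, epidermis and meninges, had 16 and 14 counts in neonates and 44 and 51 in adults. At 0.451 and 0.390 against 1.08 and 1.29 CPM it was 2.80-fold higher in adults (log2 fold change -1.49, standard error 0.44, edgeR adjusted p = 0.015), and its adjusted p was 0.060 with DESeq2. Without either adult library it fell under the filter and was not tested. Gjb6, its neighbour on the chromosome and frequent partner in one channel, had 0 and 18 counts in neonates and 11 and 5 in adults. Gja3, Gjb5, Gjd3 and Gjd4 had at most 14 counts in any library.

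Gjb1 (connexin 32) and Gjc3 (connexin 29) are the connexins of Schwann cells, and Gjb1 is known for its mutation in an inherited neuropathy. Gjb1 had 2 counts in neonate replicate 1, 51 in neonate replicate 2, and 40 and 34 in the adult libraries. The neonatal libraries thus stood on both sides of the adult ones, 25.2-fold apart with an exact 95% counting interval from 6.63 to 213.7. The log2 fold change between ages was -0.31 with a standard error of 0.87 (edgeR adjusted p = 0.77), and 0.63 without neonate replicate 1. Gjc3 had 7 and 14 counts in neonates and 17 and 35 in adults. The markers of myelinating Schwann cells moved in the same sense between the neonatal libraries, 8 of 8 being higher in replicate 2, and together they summed to 808 and 2035 CPM in neonates against 1578 and 1685 CPM in adults. Their part in the spread of Gjb1 was not tested.

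**Figure D2:**
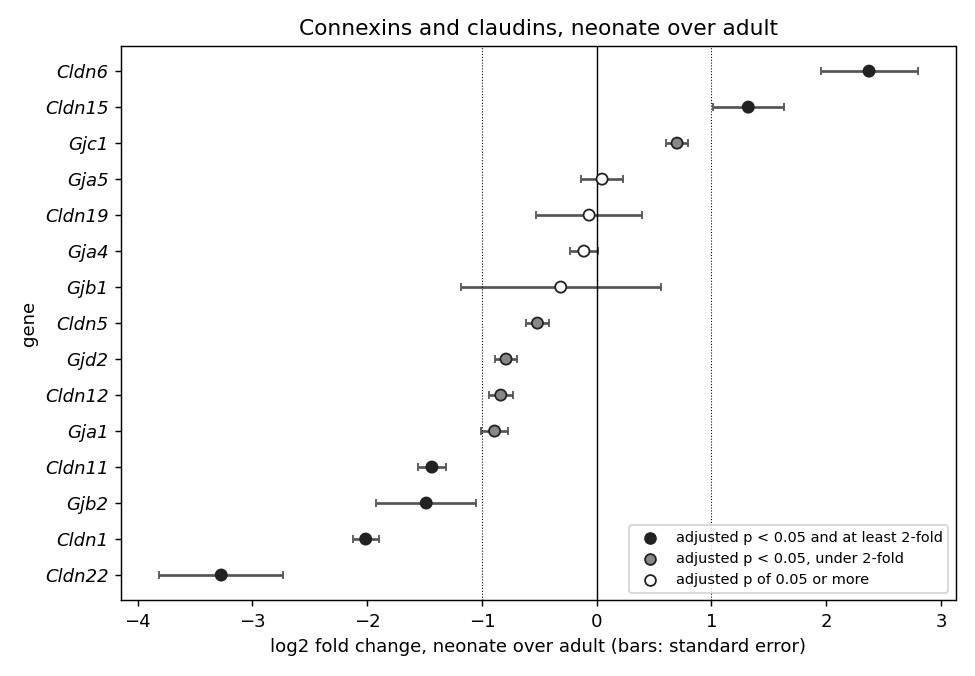
Log2 fold change, neonate over adult, of the tested connexins and claudins described in the text, with standard errors as bars. Black points are called, grey points pass an adjusted p of 0.05 under 2-fold and white points do not pass, and dotted lines mark 2-fold. The range runs from -3.27 for Cldn22 to 2.37 for Cldn6.

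Among the claudins tested, Cldn1 had the smallest adjusted p. Cldn1 (ENSRNOG00000001926), which seals epidermis and the perineurium, the cell sleeve around nerve bundles, had 1259 and 1504 counts in neonates and 5832 and 6708 in adults. At 35.5 and 41.9 CPM against 143.1 and 169 CPM, it was 4.04-fold higher in adults (log2 fold change -2.01, standard error 0.11, edgeR adjusted p = 3.4e-06). The smallest adult value was more than 3 times the largest neonatal value. Of the other claudins of nerve, Cldn11, the claudin of central myelin and of the testis barrier, changed in the same direction. It stood at 11.5 and 13.9 CPM in neonates and at 32.8 and 36 CPM in adults, 2.71-fold higher in adults (log2 fold change -1.44, standard error 0.12, edgeR adjusted p = 2.4e-05). Cldn1 and Cldn11 were 1.18-fold and 1.21-fold higher in neonate replicate 2 than in replicate 1, far less than the markers of myelin.

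Cldn19, the claudin of Schwann cell myelin and of the kidney, stood at 1.46 and 3.87 CPM in neonates and at 2.11 and 3.48 CPM in adults. The ages overlapped, and the log2 fold change was -0.066 with a 95% interval from -1.11 to 0.98 (edgeR adjusted p = 0.91), an interval that reaches to about 2-fold in both directions. Neonate replicate 2 held 2.64-fold more than replicate 1 (exact 95% counting interval 1.91 to 3.71), on the side of the myelin markers. The sign turned without neonate replicate 1, to 0.48, and without adult replicate 2, to 0.31. The part of the myelin difference in this was not tested.

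Cldn5, the defining claudin of endothelium, was higher in adults by less than 2-fold. It stood at 77.3 and 93.9 CPM in neonates and at 117.9 and 127 CPM in adults, a 1.43-fold difference (log2 fold change -0.52, standard error 0.10, edgeR adjusted p = 0.0020). The ages did not overlap. Of the markers of barrier endothelium, the vessel lining that restricts transport into brain and nerve, 2 of 4 were lower in neonates, as were 31.1% of all genes. The others did not pass the test, and the 4 markers had a median log2 fold change of -0.69. Their summed level was 32.7 and 27.3 CPM in neonates and 54.9 and 62.1 CPM in adults, while the general endothelial markers had the median of -0.075 given above. The part of barrier endothelium in the change of Cldn5 was not tested.

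Cldn12, a widely expressed claudin that lacks the scaffold-binding end of most others, stood at 20.7 and 18.3 CPM in neonates and at 35 and 34.5 CPM in adults. It was 1.79-fold higher in adults (log2 fold change -0.84, standard error 0.10, edgeR adjusted p = 0.00015). With library size alone, Gja1, Gjd2 and Cldn12 were past 2-fold, at log2 fold changes of -1.14, -1.03 and -1.08.

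Cldn22 was 9.66-fold higher in adults (log2 fold change -3.27, standard error 0.54, edgeR adjusted p = 0.00077). It had 15 and 4 estimated counts in neonates and 95.971 and 113.453 in adults. Cldn22 and its neighbour Cldn24 are the only members with fractional estimated counts, which arise where reads fit more than one sequence. Cldn24 was at 0 in both neonatal libraries and at 10.029 and 4.547 in adults, and the counts of the pair added up to the whole numbers 106 and 118. The adult level of each is uncertain for that reason, while the summed level of the pair, 0.422 and 0.111 CPM in neonates and 2.6 and 2.97 CPM in adults, does not depend on how the reads were divided. The log2 fold change of Cldn22 was -4.50 without neonate replicate 1 and -2.60 without neonate replicate 2, and without either adult library the gene fell under the filter and was not tested.

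The claudins that were higher in neonates were Cldn15 and Cldn6. Cldn15, which forms sodium channels in intestine, stood at 4.53 and 4.31 CPM in neonates and at 1.45 and 2.09 CPM in adults, a 2.50-fold difference (log2 1.32, standard error 0.31, edgeR adjusted p = 0.0050). Its neonatal libraries differed 1.05-fold, with a counting interval that includes equality, and the age difference had an adjusted p of 0.059 without adult replicate 1 by the same edgeR test. Cldn6, a claudin of embryonic epithelium, had 148 and 83 counts in neonates and 22 and 28 in adults. At 4.17 and 2.31 against 0.540 and 0.706 CPM it was 5.18-fold higher in neonates (log2 2.37, standard error 0.42, edgeR adjusted p = 0.0012). Without either neonatal library it no longer reached 1 CPM in 2 libraries and was not tested.

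Of the other sealing claudins of epithelium, all below the filter, Cldn3, Cldn4, Cldn7 and Cldn8 were found mainly in neonate replicate 1. Cldn9 and Cldn14 of the same class, given further on, were not, and Cldn18 was at 0 in every library. Cldn4, which limits sodium flow across tight epithelia, had 50 counts in neonate replicate 1, 5 in neonate replicate 2 and 0 in both adult libraries. Cldn7 had 50 and 16 counts in neonates and Cldn8 had 31 and 3, and both were at 0 in both adult libraries. Set against the floor of 3 counts per library, mean levels in neonates were at least 10.4-fold higher for Cldn4, at least 12.4-fold for Cldn7 and at least 6.41-fold for Cldn8. Neonate replicate 1 carried most of each mean. In replicates 1 and 2 the levels were 1.41 and 0.139 CPM for Cldn4, 1.41 and 0.445 CPM for Cldn7, and 0.873 and 0.0835 CPM for Cldn8. In replicate 2 Cldn8 thus stood at the floor itself, and these bounds do not hold for that library alone. Cldn3 had 36 and 15 counts in neonates and 2 and 9 in adults. With no filter on CPM, edgeR's adjusted p was 0.012 for Cldn4, 0.0029 for Cldn7, 0.024 for Cldn8 and 0.078 for Cldn3.

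Cldn3, Cldn4, Cldn6, Cldn7 and Cldn8 differed between the neonatal libraries in the same sense as the markers of parathyroid and most of those of epithelium. The epithelial markers Cdh1 and Krt19 had ratios of 1.03 (0.882 to 1.20) and 1.19 (0.838 to 1.68), replicate 1 over replicate 2, with counting intervals that include equality. Replicate 1 over replicate 2 was 10.1-fold for Cldn4 (exact 95% counting interval 4.06 to 32.5), 10.5-fold for Cldn8 (3.26 to 53.4), 3.16-fold for Cldn7 (1.77 to 5.95), 2.43-fold for Cldn3 (1.30 to 4.77) and 1.80-fold for Cldn6 (1.37 to 2.39). The same ratio was 8.51 for Pth, 7.30 for Gcm2, the parathyroid transcription factor, and 3.54 for Casr, the calcium receptor. Summed over the 3 parathyroid markers, the level was 1796 and 212 CPM in neonates, and 0.0245 and 0.0504 CPM in adults. Over the 10 epithelial markers it was 48.5 and 22.5 CPM in neonates and 34.7 and 36.5 in adults. Of the 5 epithelial markers tested, Krt8 was higher in neonates (log2 2.44, edgeR adjusted p = 0.00037), Krt19 and Cdh1 were lower (log2 fold changes -1.91 and -0.94), and Epcam and Elf3 did not pass the test. Of the 5 not tested, Krt5, Krt14, Esrp1 and Grhl2 were at 0 in both adult libraries and Krt18 was not. The epithelial markers thus did not share a direction between ages. The 6 thyroid markers summed to 1.21 and 1.75 CPM in neonates and 2.21 and 1.79 CPM in adults. Cldn15, also called higher in neonates, had a ratio of 1.05, and Cldn22, called lower, had a ratio of 3.79 (1.21 to 15.7). The part of parathyroid or other epithelium in the neonatal claudins was not tested.

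**Figure D3:**
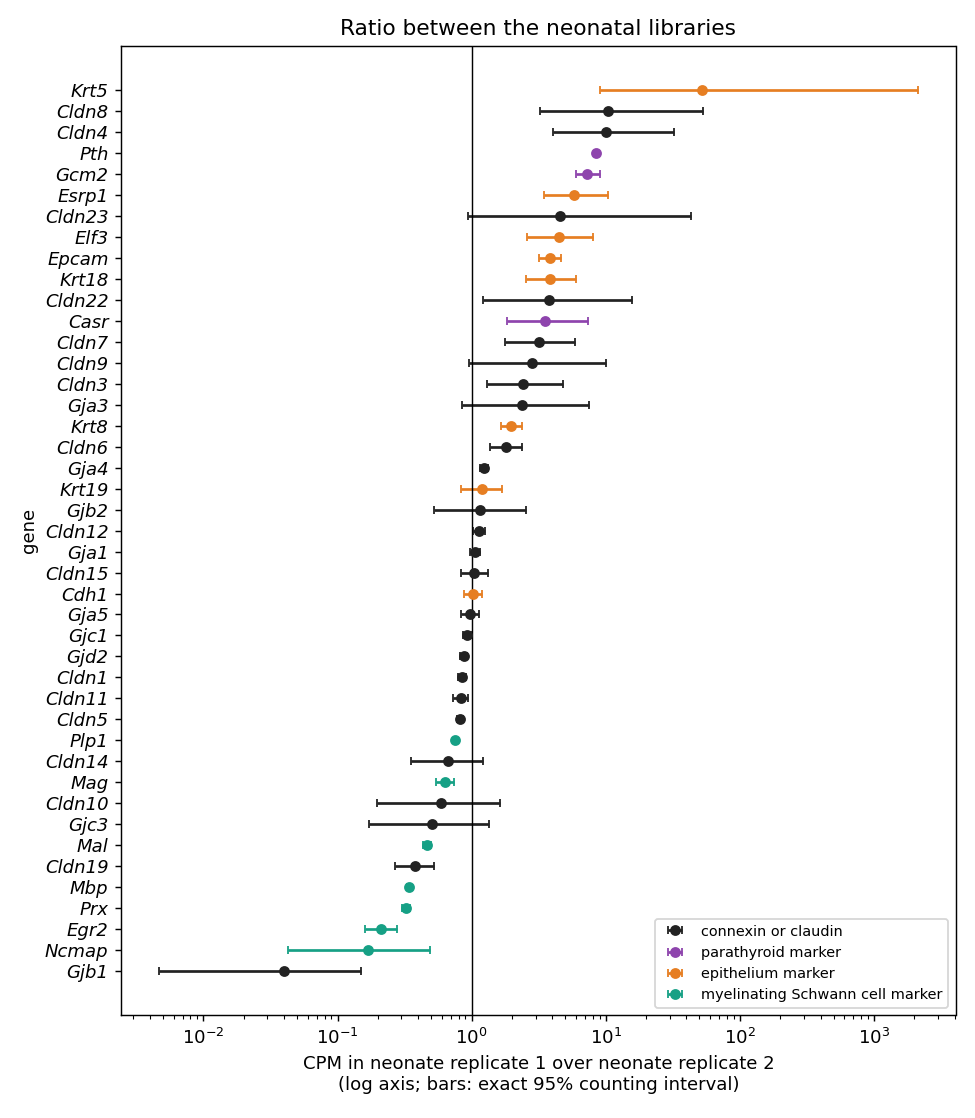
CPM in neonate replicate 1 over neonate replicate 2 (log axis), with exact 95% counting intervals, for connexins and claudins with 10 or more counts in the 2 libraries together (black) and markers of parathyroid (purple), epithelium (orange) and myelinating Schwann cells (green), leaving out genes at 0 in either library. Krt5 has the highest ratio, 52.6, Cldn8 and Cldn4 lie near Pth and Gcm2, Cldn19 lies among the myelin markers, and Gjb1 lies below them all. Better measured members lie nearer 1, such as Gja1 at 1.06, though the counting intervals of Gja4 (1.23) and Cldn5 (0.823) exclude 1.

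The other claudins that were detected stayed at low counts. Cldn2, a channel for sodium and water, had 1 count in each neonatal library and 9 and 20 in adults. With no filter on CPM, edgeR gave it an adjusted p of 0.047. Cldn14 had 19 and 29 counts in neonates and 35 and 47 in adults, an adjusted p of 0.37 in the same edgeR fit. Cldn9, next to Cldn6 on the chromosome, had 14 and 5 counts in neonates and 13 and 8 in adults, and so did not show the difference of its neighbour at this depth (edgeR adjusted p = 0.995 in that fit). Cldn10, Cldn16, Cldn20 and Cldn23 had at most 12 counts in any library.

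Genes of the proteins that work with connexins and claudins were followed as 4 lists, 37 genes in all, of which 32 were tested. At an adjusted p under 0.05 in edgeR's test, 7 were higher in neonates, 14 were lower and 11 did not pass, the median log2 ratio being -0.27, against -0.0029 over all genes. By the 2-fold rule 2 were called higher, Cgn and Perp, and 4 lower, Cgnl1, Amotl1, Pals1 and Emp2. Over all genes tested the shares were 7.68% and 13.2% by that rule, close to those of the partners, and 31.2% and 31.1% by adjusted p alone. In the table Pals1 is listed under its older symbol Mpp5.

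Of the 14 scaffolds that anchor junctions from inside the cell, 4 were higher in neonates and 5 lower. Tjp1 (ZO-1), which binds both claudins and Gja1, stood at 127.4 ± 9.60 CPM in neonates and 177.4 ± 9.02 in adults (SD, n = 2 libraries), which is -0.48 on the log2 scale (standard error 0.084, edgeR adjusted p = 0.0011). The related scaffold Tjp3 was higher in neonates at 0.96 (edgeR adjusted p = 0.012). The cingulin pair moved in opposite directions. Cgnl1 stood at 26.1 and 29.2 CPM in neonates and at 60.5 and 72.5 CPM in adults (log2 fold change -1.27, standard error 0.12, edgeR adjusted p = 3.1e-05). Cgn stood at 3.86 and 1.25 CPM in neonates and at 0.614 and 0.983 CPM in adults (log2 1.68, standard error 0.55, edgeR adjusted p = 0.025). Cgn was thus also highest in neonate replicate 1, the library with the most Pth. Amotl1 and Pals1 were each at -1.02, and Magi1 and Mpdz were higher in neonates at 0.88 and 0.46.

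Of the 12 membrane partners of claudins listed, 8 were tested. By adjusted p 6 were lower in neonates, 1 was higher and 1 did not pass, where 31.1% of all genes were lower, and 0 of the 8 were called at 2-fold. Ocln (occludin) stood at 5.04 and 6.65 CPM in neonates and at 9.18 and 11.8 CPM in adults (log2 fold change -0.84, standard error 0.23, edgeR adjusted p = 0.010). Marveld2 (tricellulin), which seals the corners where 3 cells meet, was at -0.97, and the junctional adhesion molecules F11r, Jam2 and Jam3 were at -0.41, -0.63 and -0.59. Esam, an adhesion molecule of endothelium, was the member of this list that was higher in neonates, at 0.35 (edgeR adjusted p = 0.020).

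The 3 pannexins, another family of membrane channel proteins, did not pass the test. Panx1 stood at 5.29 and 5.23 CPM in neonates and at 4.74 and 5.22 CPM in adults, with edgeR adjusted p of 0.77, and those of Panx2 and Panx3 were 0.75 and 0.067. Among the relatives of the claudins, Emp2 was 2.42-fold higher in adults (log2 fold change -1.27, standard error 0.13, edgeR adjusted p = 5.4e-05) and Perp, a protein of desmosomes, was 3.22-fold higher in neonates (log2 1.69, standard error 0.34, edgeR adjusted p = 0.0022). Tmem47 and Cldnd1 were lower in neonates and Emp3 higher, all under 2-fold. Pmp22, a protein of compact myelin, stood at 299.7 and 518 CPM in neonates, and at 516 and 570 CPM in adults. Its log2 fold change of -0.41 had an edgeR adjusted p of 0.11, and its lower neonatal library was the one with less of the myelin markers.

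**Figure D4:**
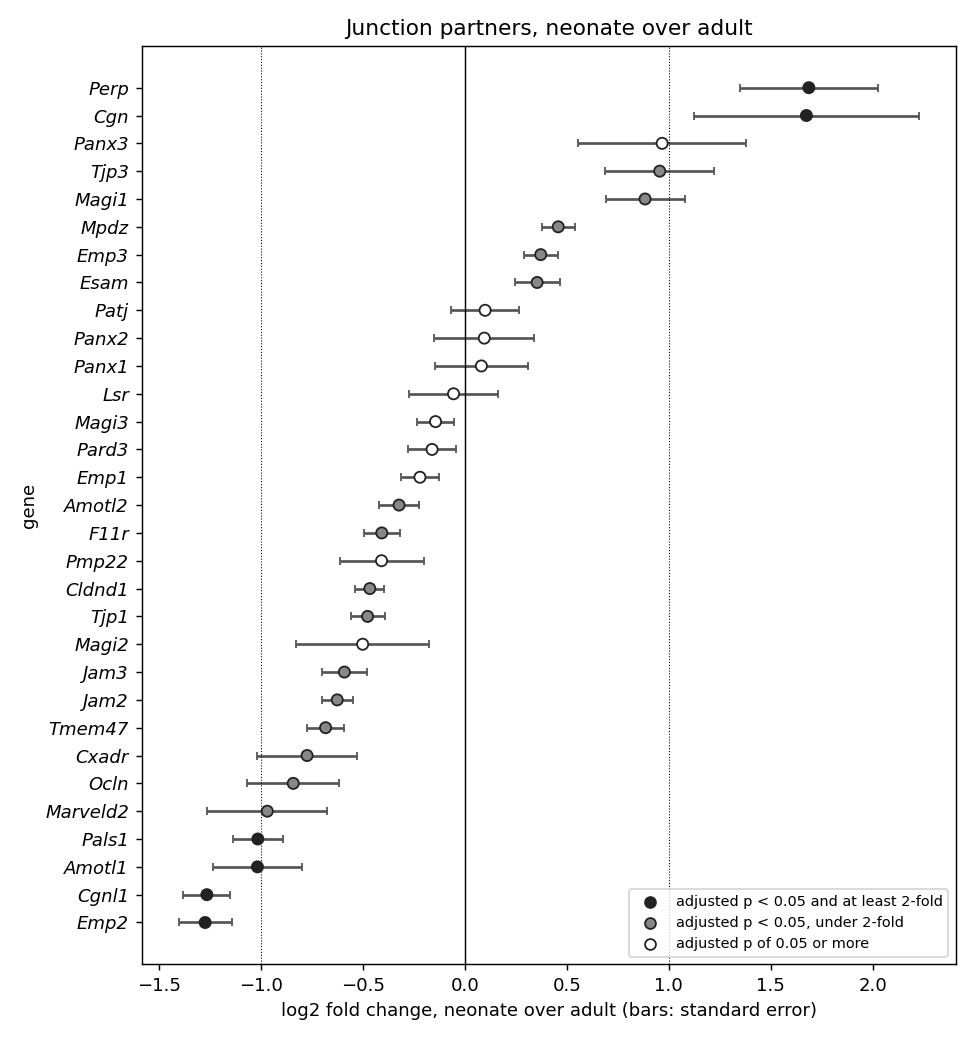
Log2 fold change, neonate over adult, of tested partner genes, with standard errors as bars and point shades as for the members. Cgn and Perp lie past 2-fold toward neonates, and Emp2, Cgnl1, Amotl1 and Pals1 toward adults.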

How the data were processed

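RNA of pooled CBs was sequenced by the authors. Per the study's methods, they trimmed the reads, aligned them with STAR to rat Rnor_6.0 and quantified them with Salmon (1.5.2 in the submitters' processing notes). The authors deposited estimated counts per gene, not normalized, which were rounded here. Of 32883 genes, 636 were left out because a RefSeq table (GRCr8, matched by symbol because the builds differ) gives them a biotype without protein. A gene was tested if 2 or more libraries reached 1 CPM before TMM scaling, in R 4.3.3 with edgeR 4.0.16, TMM normalization and no covariate. Standard errors follow from the fold change and its quasi-likelihood F. Alternatives used DESeq2 1.42.0, limma 3.58.1 (voom), other scalings and filters, a replicate block and each library left out. The fit was tested on simulated data. Members, partner lists, marker lists and the naming rule were chosen with earlier results of these data known. A few genes are not reported here and are left out of the plots. The rule names each other tested member, each called partner, and Tjp1, Ocln and Pmp22. The other partners were named after their values were seen. The markers Pecam1, Abcb1a, Foxd3, Myh1 and Myh2 were among those not found by symbol. Between libraries of an age, chi-square over its degrees of freedom was 33.6 for neonates and 17.1 for adults, so each library counted as 1 replicate.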

Additional observations from a re-analysis of the deposited data

How the results depend on the processing

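Over 16 members and 12 alternatives, 169 of 178 log2 fold changes kept their direction and their side of an adjusted p of 0.05. Reversals concern genes that did not pass the test: Cldn19 without neonate replicate 1 (0.48) and without adult replicate 2 (0.31), Gja4 without neonate replicate 2 (0.049), Gja5 with library size alone (-0.20) and without adult replicate 1 (-0.071), and Gjb1 without neonate replicate 1 (0.63). With a library left out, the values ran from -0.91 to 0.48 for Cldn19, -0.26 to 0.049 for Gja4, -0.071 to 0.12 for Gja5 and -0.43 to 0.63 for Gjb1, which was under the filter without neonate replicate 2 or adult replicate 1. Gjb1 was also at -1.54 with limma-voom and -0.89 with a replicate block, against -0.31. The adjusted p moved past 0.05 for Cldn15 without adult replicate 1 (0.059) and Gjb2 with DESeq2 (0.060), and under it for Gja4 with library size alone (0.029). The count of members called higher in neonates was 3. It was 6 with no filter on CPM, where Cldn4, Cldn7 and Cldn8 entered, 1 with a mean of at least 5 CPM, where Cldn6 and Cldn15 were no longer tested, and 2 with each library left out. The count called lower was 4. It was 7 with library size alone, where the median over all genes was -0.25, 2 with a mean of at least 5 CPM, 8 with no minimum fold change, and 2 to 4 with a library left out, the lowest without adult replicate 2. Cldn22 and Gjb2 were not tested without either adult library. For the partners the counts were 2 higher and 4 lower. The count higher was 1 with limma-voom, 0 with a mean of at least 5 CPM, where Cgn and Perp were not tested, 7 with no minimum fold change and 1 to 3 with a library left out. The count lower was 7 with library size alone, 14 with no minimum fold change and 2 to 6 with a library left out, the lowest without neonate replicate 1 and the highest without neonate replicate 2. The replicate number is shared between ages, but deviations of same-numbered libraries had a correlation of -0.015 across genes, so the number does not pair them. With a replicate block, 3 members were called higher and 4 lower, and 2 and 3 partners. Depth limits the members under 50 counts, and transcript lengths were not used here.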

Other observations

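Among protein-coding genes of the RefSeq table, 18 members lie in 10 pairs of direct neighbours. Next to Cldn1, with over 1000 counts in every library, Cldn16 had 3 and 1 counts in neonates and 1 and 7 in adults. Cldn3 and Cldn4 were both highest in neonate replicate 1, with 36 and 50 counts. No test was run on these pairs.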
